A study of Mus musculus with 20 samples.

Results

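ASC1-type cells are the adipose stromal cells of mouse interscapular brown adipose tissue (iBAT) that carry transcripts of Bmper, Lpl, Col5a3, Cxcl14, Adam12 and Hsd11b1. They were taken from single-cell RNA-seq libraries of the Lin- fraction, the cells left after depletion of cells with blood lineage surface markers, and were chosen by a rule on the corrected UMI counts of each cell. A cell had less than 10% mitochondrial counts, a total under 15000 and at least 500 genes detected. It then had a summed count of at least 5 for the stromal genes Pdgfra, Col1a1 and Dcn, under 1 for Pecam1, Cdh5 and Ptprc, and at least 3 for the 6 ASC1 markers. The summed counts of the ASC2 markers (Pi16, Dpp4, Cd55, Dact2, Sema3c, Krtdap) and of the ASC3 markers (Gdf10, C7, Clec11a, Epha3, Itgbl1, Fmo2) were each under 1. Cells with at least 0.5 counts of Lrrc15 or a summed count of at least 4 over 8 proliferation genes were left out. The rule was met by 12582 of 60538 filtered Lin- cells from 10 libraries, out of 156759 barcodes in the 20 libraries of the series.

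C57 mice, which were male, were kept at room temperature (RT, 24 °C), were exposed to 6 °C for 4 days (COLD), or received the β3 adrenergic agonist CL-316,243 (CL) for 4 days at 0.75 nmol per hour from an osmotic pump at room temperature, with 2 Lin- libraries per group. An Adrb1 line contributed 4 further Lin- libraries from female Adrb1 fl/fl mice, all treated with tamoxifen, which were held at RT or, for the same 4 days, at 6 °C. The KO mice carried Pdgfra-CreER, a Cre driven by the promoter of the stromal receptor gene Pdgfra, whereas the WT mice lacked Cre. All mice were 8 to 14 weeks old and each library pooled 3 to 4 mice, so the pool was the unit of replication.

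Adipose stromal cells (ASCs) form the connective tissue of fat depots, and part of them are adipocyte precursors. They deposit matrix and secrete chemokines, and when they differentiate they switch on PPARγ, lipid-handling proteins and adipokines. The label ASC1 has been used for stromal cells with an adipogenic profile, ASC2 for Pi16- and Dpp4-positive cells near connective tissue sheaths, and ASC3 for Gdf10-positive cells.

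The C57 libraries held 1240 and 1025 ASC1-type cells at RT, 2747 and 1783 after cold, and 1600 and 1376 after CL. The Adrb1 line held 452 and 1281 in WT and 317 and 761 in KO mice, at RT and after cold. As a share of filtered cells this was 23.2% and 18.3% at RT, 29.5% and 26.6% after cold, and 16.3% and 22.3% after CL in C57 mice. Of the cells that met every other limit, the limits on ASC2 and ASC3 markers removed 1014 of 2254 and 251 of 1276 at RT. They removed 645 of 3392 and 1065 of 2848 after cold, and 527 of 2127 and 1664 of 3040 after CL. The shares therefore also rest on these limits. Summed counts per C57 library ran from 1650895 to 10028005, with median UMIs per cell from 1599 to 5379. RT replicate 2 stood apart, because 72.0% of its barcodes exceeded the mitochondrial limit against 2.89% to 12.8% in the other C57 libraries, and it had the lowest median. The counts of called genes in the comparisons are given with and without it. Among 45 pairs of libraries, up to 139 filtered cell barcodes were shared, at most 1.71% of the smaller library, and no pair shared more than 7 ASC1-type barcodes. Replicate libraries of a group differed beyond sampling noise, by a chi-square of their summed counts that came to 24.2 to 36.1 for each degree of freedom. The labels do not say that the mice of a pool were housed or bred apart from those of its replicate.

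The markers were present in every library, as the rule required. A cell had a median of 5 and 3 of the 6 markers at RT, 4 and 4 after cold, and 3 and 4 after CL. Lpl, the lipase that frees fatty acids from lipoproteins, made up 42.3% and 42.9% of the marker sum at RT, 73.4% and 76.3% after cold, and 65.8% and 57% after CL. Cxcl14 stood at 4263 and 3406 CPM at RT and at 1044 and 917 CPM after cold, and Hsd11b1, which activates glucocorticoids, at 870 and 810 CPM against 132 and 148 CPM. The gate therefore kept cells through different markers in different conditions, and as these genes chose the cells, their values are a description. Cells just inside the marker limit, with a sum from 3 to under 4, numbered 12 and 35 at RT, 62 and 31 after cold, and 112 and 20 after CL. Just outside it, with a sum from 2 to under 3, were 18 and 38, 76 and 47, and 132 and 32 cells. The summed level of 10 macrophage markers was 20.9 to 41.6 CPM in the C57 libraries with Adgre1 at 0.193 CPM or below. The 8 endothelial markers summed to 58.4 to 230.3 CPM against 8544 to 10220 CPM in endothelial-type cells, with the CL libraries (230.3 and 187 CPM) above the RT libraries (177 and 58.4 CPM) and 0 of 8 markers called, nor any at an unadjusted p under 0.05, in edgeR or DESeq2. The 5 erythroid markers summed to 88.3 CPM in COLD replicate 1 and to 2.23 to 14.4 CPM in the other 5 libraries, where the 4 tested markers had positive fitted values in cold (median 2.86) with 0 called in edgeR (0 at an unadjusted p under 0.05) and 0 in DESeq2 (2). The 7 mural and 6 Schwann markers summed to 122.5 to 219 CPM and 15.6 to 41.3 CPM, each with 1 marker called lower in cold. With the replicate number as a block, edgeR called the erythroid Hbb-bt (3.18), the endothelial Egfl7 (1.11) and the mural Acta2 (2.30) higher in cold than at RT. In that fit the mural Kcnj8 (-1.24) was lower in cold than at RT and the endothelial Cldn5 (-1.81) lower in cold than in CL. The part of these markers in the results was not tested.

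Levels are CPM, counts of a gene relative to the summed counts of all ASC1-type cells of a library, scaled in the C57 libraries by TMM factors and unscaled in the Adrb1 line. Differences are log2 fold changes from edgeR's quasi-likelihood test over the 6 C57 libraries, with p-values adjusted by Benjamini-Hochberg over 12436 genes and a threshold of 0.05. Cold changed 1396 genes against RT (11.2%), of which 711 were higher and 685 lower. CL changed 126 (1.01%), 71 higher and 55 lower, and cold differed from CL in 47 (0.378%), 29 higher and 18 lower. Without RT replicate 2, the counts were 489, 46 and 10. Cold called 681 genes when RT replicate 1 was left out, and 360 or 413 when COLD replicate 1 or 2 was, while CL called 31 when CL replicate 1 was left out. With the replicate number as a block, CL called 264 and cold against CL 109. With each cell thinned to 1500 UMIs they were 506, 17 and 2. Cold against RT and CL against RT share the RT libraries, so their results are not independent of each other.

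**Figure D1:**
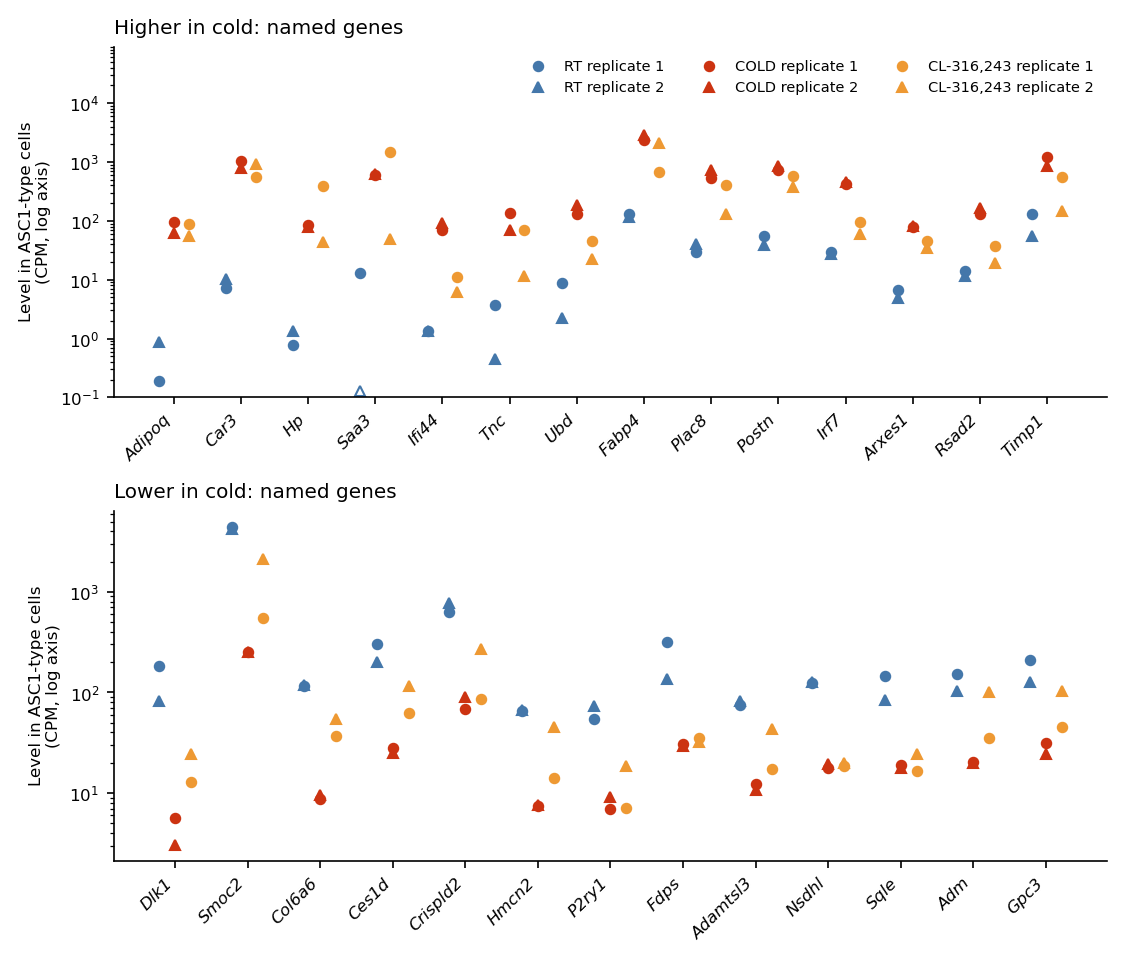
Level in ASC1-type cells (CPM, log axis) of the genes named for their rise (top) or fall (bottom) after cold, by C57 library. Circles are replicate 1 and triangles replicate 2, and the open triangle at the bottom stands for Saa3 at 0 in RT replicate 2. The rule for naming required that the cold points not overlap the RT points (30.3% of all genes tested had both cold libraries above the RT libraries and 30.2% below). CL libraries lie with cold for Car3 and Nsdhl and between the groups for Irf7 and Rsad2.

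Interferon-response genes were higher in cold. Type I interferon acts through STAT and IRF proteins, which bind a short repeated element near the start of antiviral genes. The upstream sequences of 4 such genes that rose in cold (Ifit1, Ifit3, Rsad2 and Isg15) are shown to place that element. They are the 150 bases before the annotated start in RefSeq GRCm38.p6, 5′ to 3′ on the strand of the gene, with matches on either strand to the core of the interferon-stimulated response element (GAAA, any 2 bases, GAAA) in capitals.
Ifit1, chr19:34640739-34640888, plus strand: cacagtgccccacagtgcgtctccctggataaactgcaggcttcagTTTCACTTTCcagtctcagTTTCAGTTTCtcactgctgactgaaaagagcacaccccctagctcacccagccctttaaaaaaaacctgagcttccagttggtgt
Ifit3, chr19:34583379-34583528, plus strand: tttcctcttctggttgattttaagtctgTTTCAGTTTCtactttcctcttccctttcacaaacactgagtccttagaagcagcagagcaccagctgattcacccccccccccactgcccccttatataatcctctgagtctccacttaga
Rsad2, chr12:26456453-26456602, minus strand: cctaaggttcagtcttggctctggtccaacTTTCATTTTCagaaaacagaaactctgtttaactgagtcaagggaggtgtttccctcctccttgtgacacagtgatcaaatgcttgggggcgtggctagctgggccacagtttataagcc
Isg15, chr4:156200819-156200968, minus strand: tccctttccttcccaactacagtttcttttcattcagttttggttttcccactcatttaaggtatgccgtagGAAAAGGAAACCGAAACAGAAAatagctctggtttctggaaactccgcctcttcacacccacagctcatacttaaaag
The nearest match ended 76, 113, 111 and 57 bases before the start in this order, and the capitals of Isg15 hold 3 overlapping matches.

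A match to this core, searched on both strands of the 250 bases before the start, was present in 2.98% of 32851 RefSeq windows and in 3.24% of the tested genes that had a window (310 of 9566). It was present in 8.86% of the genes higher in cold (49 of 553) and in 2.32% of those lower (12 of 517). For CL it was in 1 of 52 genes higher (1.92%) and 3 of 36 lower (8.33%). Of the genes higher in cold than in CL, 11 of 25 with a window held it (44.0%), as did 11 of the 19 interferon-list genes with a window (57.9%): Bst2, Gbp2, Gbp7, Ifit1, Ifit3, Ifit3b, Igtp, Isg15, Oas1a, Rsad2 and Stat2. These matches are letters in a window and say nothing of binding. The same search for CACCCCAC, a core of the sterol regulatory element, found 1 of 14 sterol-synthesis genes (Hmgcs1) against 2.58% of all windows, and only this spelling was searched.

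After cold, 20 of the 24 interferon-response genes were higher than at RT (5.72% of all genes tested were called higher), with a list median of 1.93 log2 units against 0.0019 for all tested genes. The count was 18 when RT replicate 2 was left out, and also 18 with cells thinned to 1500 UMIs. Irf1, Irf9, Ifit2 and Iigp1 did not pass the test, although Ifit2 did with the replicate block (0.68, edgeR adjusted p = 0.0415). Irf7, the transcription factor that amplifies interferon production, stood at 29.3 and 27.2 CPM at RT, 415 and 453 CPM after cold, and 95 and 59.3 CPM after CL. The cold libraries lay above all others, and the difference from RT was 3.94 ± 0.31 (SE, n = 2 libraries per group, edgeR adjusted p = 0.000817). Ifit1, which binds viral RNA, was at 41.3 and 33.9 CPM at RT, 339 and 489 CPM after cold, and 104 and 118 CPM after CL. It rose in both treatments, by 3.45 in cold and 1.55 in CL on the log2 scale. Isg15, a ubiquitin-like modifier, was at 213 and 126 CPM at RT, 869 and 944 CPM after cold, and 378 and 312 CPM after CL. Only its difference between cold and RT, 2.41, passed the test among the 3 comparisons.

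Rsad2, the antiviral protein viperin, went from 14.3 and 11.6 CPM at RT to 132 and 166 CPM after cold, with 37.1 and 19 CPM after CL. Bst2 (tetherin) stood at 199 and 104 CPM at RT and at 1344 and 1573 CPM after cold, and Ifit3 at 58.8 and 55.7 CPM against 366 and 450 CPM. Ifi44 showed the largest fold of the list, from 1.35 and 1.34 CPM to 68.9 and 90.3 CPM (5.86 ± 0.36). At the lower end, Stat2 rose by 0.58 on the log2 scale. The receptor genes Ifnar1 and Ifnar2 differed from RT by -0.01 and -0.08 and Ifngr1 by -0.82, and these 3 differences did not pass the test.

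CL gave a smaller difference from RT in the same list, with 2 genes higher (Ifit1 and Ifi44, against 0.571% of all genes called higher) and a median of 0.73 against 0 for all tested genes. Tested directly, 10 of the 24 genes were higher in cold than in CL (0.233% of all genes, and 13 with the replicate block). They were Irf7, Ifit1, Ifit3, Ifit3b, Ifi44, Ifi47, Rsad2, Usp18, Gbp7 and Igtp. Ifi44 was 3.22 log2 units higher in cold than in CL, Irf7 2.50 and Rsad2 2.44. Phf11d, outside the list, was higher by 1.58 with 101.5 and 140.0 CPM in cold and 39.5 and 41.1 CPM in CL. The cold libraries lay above the CL libraries for each of these genes, as they did for 23.1% of all genes tested. The naming rule required this order of the genes named by it. Between cold and CL edgeR called 0 genes when RT replicate 1 was left out (1719 at an unadjusted p under 0.05) and 0 when only the cold and CL libraries were fitted (1705), while DESeq2 on all 6 libraries called 144. Without RT replicate 2, which belongs to neither group compared, 3 of the list were called, and Irf7, Rsad2, Ifit1, Usp18 and Phf11d had adjusted p-values of 0.0512, 0.0618, 0.0618, 0.0547 and 0.0618.

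In the MHC class I list, 2 of 13 genes were higher in cold (5.72% of all genes), the peptide transporter Tap1 and the MHC class I regulator Nlrc5, with a list median of 0.96. B2m, the light chain of class I molecules, had 5943 and 3223 CPM at RT and 7243 and 10640 CPM after cold. The RT libraries lay below the cold libraries, but the difference of 0.96 did not pass the test. Neither call of the list held without RT replicate 2.

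**Figure D2:**
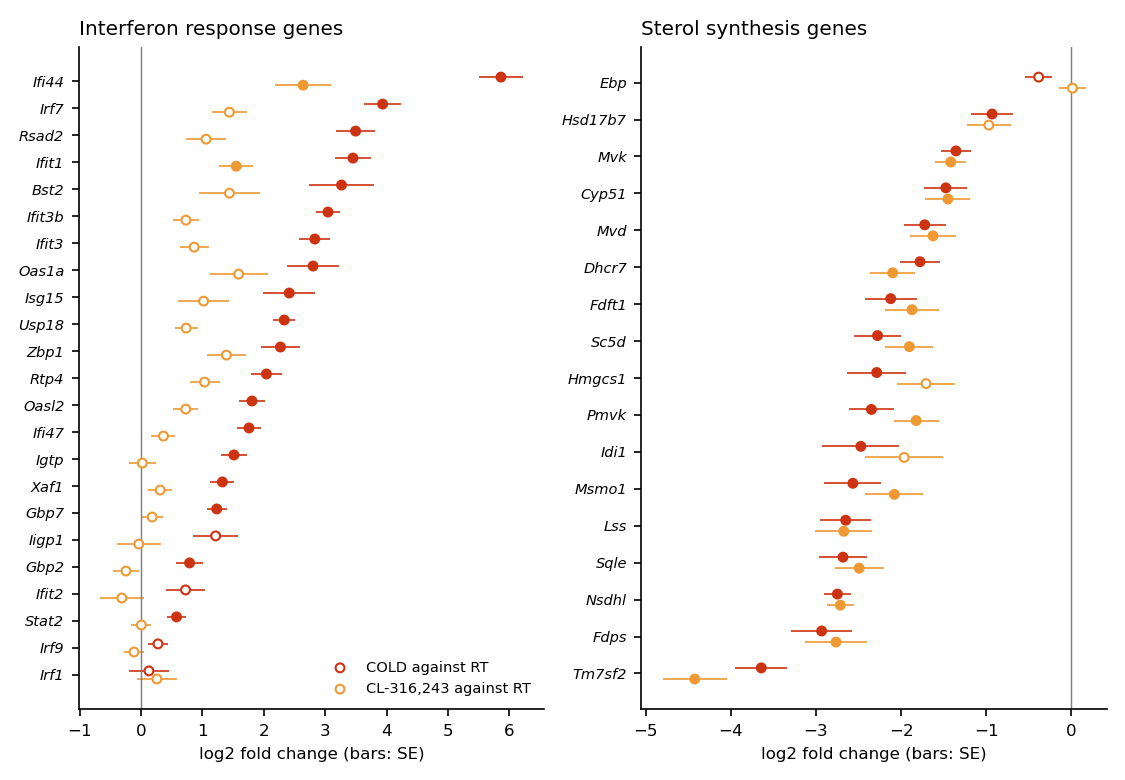
log2 fold change of interferon-response genes (left) and sterol-synthesis genes (right) in ASC1-type cells, COLD (red) and CL-316,243 (orange) against RT, with bars for the standard error. Filled points passed the adjusted threshold and open points did not. Ifi44 shows the largest rise among the interferon genes drawn (5.86 in cold and 2.64 in CL), and Tm7sf2 the largest fall among the sterol genes drawn (-3.64 in cold and -4.43 in CL).

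Genes of cholesterol synthesis fell in both treatments. The pathway makes sterols from acetyl-CoA and is switched on by the transcription factor SREBP2 (gene Srebf2) when cell sterol is low. In cold 17 of 19 genes were lower than at RT (5.51% of all genes called lower), with a median of -2.29, and in CL 14 of 19 (0.442%, and 15 with the replicate block), with a median of -1.90. The count in cold was 17 without RT replicate 2 and 16 with thinned cells, whereas in CL it was 14 without RT replicate 2, 7 when RT replicate 1 was left out, 4 when CL replicate 1 was, and 6 with thinned cells. Ebp, a sterol isomerase, differed in cold by -0.38 and did not pass. Nsdhl, which removes a methyl group from the sterol ring, had 125 and 127 CPM at RT, 17.9 and 19.5 CPM after cold and 18.4 and 19.8 CPM after CL. All 4 treated libraries lay well below the RT libraries and within 2 CPM of each other, with log2 differences of -2.75 ± 0.16 in cold and -2.71 ± 0.16 in CL (edgeR adjusted p = 0.000283 and 0.00106). Fdps, which makes farnesyl diphosphate, had 318 and 136 CPM at RT, 30.7 and 29.1 CPM after cold and 34.9 and 32.4 CPM after CL. Its RT libraries differed from each other more than the treated libraries did. Sqle, the squalene epoxidase, was at 147 and 85.1 CPM at RT, 18.8 and 17.6 CPM after cold and 16.5 and 24.5 CPM after CL. Tm7sf2, a sterol reductase, fell by 3.64 in cold and by 4.43 in CL on the log2 scale, the largest fall of the list in both.

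Regulators of the pathway moved with it. Srebf2 itself went from 129 and 116 CPM at RT to 33.6 and 32.6 CPM after cold and 38.0 and 54.7 CPM after CL. In the list of sterol uptake, efflux and regulation, 5 of 16 genes were lower in cold (5.51% of all genes), among them Stard4, Insig1 and Srebf2, and 2 were higher (5.72%), the efflux pump Abcg1 and Ch25h, which makes 25-hydroxycholesterol. When RT replicate 2 was left out, 5 were lower and neither rise passed.

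Fatty acid synthesis followed the same direction, with 8 of 13 genes lower in cold (5.51% of all genes) and a median of -1.03. The 8 were Acaca, Acly, Acss2, Scd2, Elovl5, Fads1, Fads2 and Srebf1, and the count was also 8 without RT replicate 2 (9 lower and 1 higher with the replicate block), but 4 when RT replicate 1 was left out and 5 when either COLD replicate was. Srebf1, the regulator of fatty acid synthesis, had 158 and 97.1 CPM at RT, 30.7 and 31.5 CPM after cold and 46.6 and 38.3 CPM after CL. Acss2, which makes acetyl-CoA from acetate, had 67.7 and 56.1 CPM at RT, 16.3 and 17.1 CPM after cold and 15 and 13.4 CPM after CL. In CL 5 of 13 were lower against 0.442% of all genes (Acss2, Scd1, Fads1, Fads2, Srebf1), and Thrsp, a lipogenesis regulator, was higher, against 7 lower with the replicate block and 1 lower without CL replicate 1. Pcyt2, a phosphatidylethanolamine enzyme, fell by 1.75 in CL on the log2 scale.

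Genes of mature brown adipocytes were higher in both treatments. In cold 7 of 15 rose (5.72% of all genes), Adipoq, Fabp4, Car3, Plin1, Ucp1, Acsl1 and Cd36, with a list median of 2.83, and in CL 6 rose (0.571%) and Scd1 fell, with a median of 3.77. With the replicate block 10 rose in cold and 11 in CL. Leaving out RT replicate 2 gave 5 higher and 1 lower in cold. Adipoq, the adipokine adiponectin, had 0.193 and 0.891 CPM at RT, 97.1 and 63.2 CPM after cold, and 89.4 and 54.7 CPM after CL. All treated libraries exceeded 50 CPM, and the difference was 7.54 ± 0.56 in cold and 7.38 ± 0.57 in CL. Car3, a carbonic anhydrase of adipocytes, had 7.14 and 10.2 CPM at RT, 1040 and 789 CPM after cold, and 564 and 912 CPM after CL. Fabp4, the adipocyte fatty acid carrier, had 132 and 117 CPM at RT, 2325 and 2828 CPM after cold, and 670 and 2098 CPM after CL, and only its cold difference (4.37) passed. The Fabp4 call was lost when either COLD replicate was left out. Ucp1, the uncoupling protein of heat production, whose per-cell shares did not exceed those of endothelial-type cells, had 0.772 and 2.23 CPM at RT, 11.5 and 10.1 CPM after cold and 73.8 and 28.7 CPM after CL, and was not among the genes called between cold and CL, though it was lower in cold with the replicate block (-2.14, edgeR adjusted p = 0.029). The study corrected its counts for free RNA with Fabp4 and Car3 taken as absent from the cells used for the estimate, and the part of that correction in the values of these 2 genes was not tested.

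**Figure D3:**
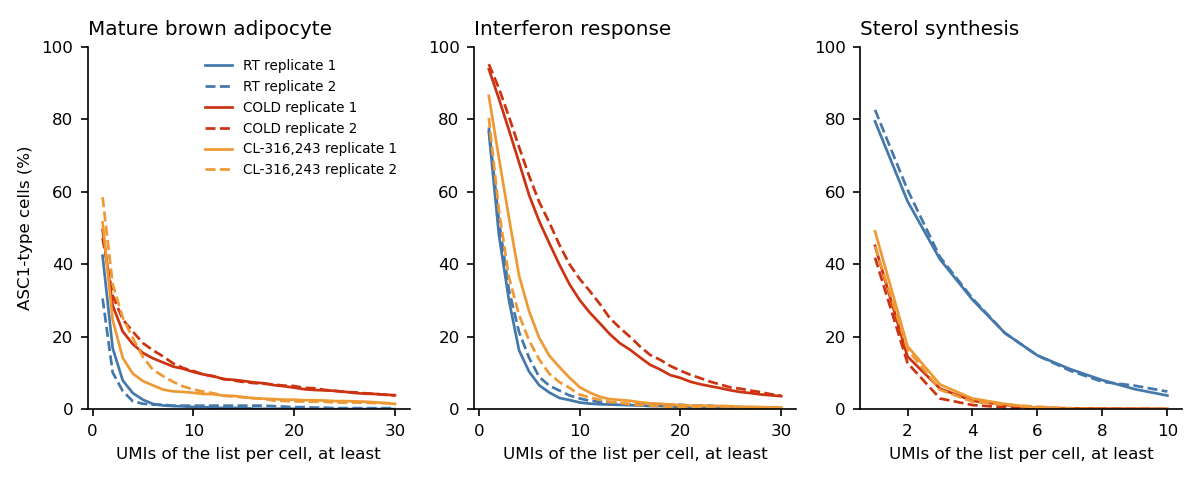
Share of ASC1-type cells (%) that hold at least the number of UMIs on the horizontal axis from a gene list, after thinning every cell to 1500 UMIs, by C57 library (solid lines replicate 1, dashed replicate 2). In cold the interferon curve is raised over nearly all cells, whereas the adipocyte curve is raised mainly as a long tail of few cells, and the sterol curves of the treated libraries lie below both RT curves.

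Per cell, most adipocyte-list UMIs lay in a small share of the cells, and the interferon UMIs were spread more widely. With each cell thinned to 1500 UMIs, the 10% of cells with the most adipocyte-list UMIs held 77.5% and 73.5% of them in cold, whereas the corresponding share for the interferon list was 35.0% and 33.1%. For the adipocyte list that share was 51.8% and 72.0% at RT and 73.8% and 64.85% in CL, so RT replicate 2 was close to cold. Cells with no adipocyte-list UMI were 50.55% and 52.8% in cold, 57.65% and 69.45% at RT, and 48.5% and 41.5% in CL. The median cell held 6 and 7 interferon-list UMIs in cold, 1 and 2 at RT, and 3 and 2 in CL. At the same depth the median endothelial-type cell held 9 and 7 in cold, 5 and 6 at RT, and 6 and 4 in CL. How much of either came from free RNA was not tested. ASC1-type cells with no interferon-list UMI were 6.12% and 4.73% in cold against 23.5% and 22.2% at RT. For sterol synthesis, cells with none were 20.6% and 17.4% at RT, 54.9% and 58.2% in cold, and 50.9% and 55.1% in CL.

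Car3 was detected in 9.15% and 8.29% of thinned cold cells, 6.16% and 4.97% of CL cells, and 0.832% and 0.808% of RT cells (9.57% and 9.03%, 6.31% and 7.05%, and 2.02% and 0.878% before thinning). At the same depth endothelial-type cells gave 1.03% and 0.255% in cold, 5.95% and 4.58% in CL, and 18.3% and 12.3% at RT. Their share did not move with that of ASC1-type cells, and how much of either came from free RNA was not tested. In cold, the 241 and 142 cells with Car3 held a mean of 19.2 and 21.7 UMIs of Fabp4 and the other adipocyte genes, against 1.53 and 1.72 in cells without it. In CL the 78 and 66 cells with Car3 held 11.4 and 14.4, against 1.07 and 1.75, with Adipoq in 37.2% and 25.8% of them and in 4.37% and 1.11% of the others. In cold the cells with Car3 also held fewer UMIs of stromal markers outside the rule, 14.0 and 17.4 against 35.7 and 38.9 (18.7 and 24.2 against 45.6 and 40.7 in CL), and fewer of the interferon list, 5.00 and 6.13 against 8.78 and 9.68. Their median total in cold before thinning was higher, 5113 and 8689 UMIs against 3538 and 5578. Whether these cells are singlets was not tested, and leaving out the top 6% of doublet scores in each library gave 8 adipocyte genes higher in cold. Adipoq was in 4.82% and 3.04% of cold cells against 2.76% and 2.55% of endothelial-type cells, and Ucp1 in 1.25% and 1.11% against 11% and 14.5%. In CL Adipoq was in 6.39% and 2.33% of cells against 8.64% and 0% of endothelial-type cells, and Ucp1 in 5.21% and 4.52% against 12.7% and 7.63%. The Ucp1 shares in cold and CL and that of Adipoq in CL replicate 1 lie below the endothelial share. In CL, Ucp1 was in 16.67% and 7.576% of cells with Car3 and in 4.458% and 4.358% of the others. In cold, Ucp1 was in 0.8299% and 0.7042% of cells with Car3 and in 1.296% and 1.146% of the others. How much of these shares came from free RNA was not tested.

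Lipid uptake and storage genes rose along with these, with 9 of 18 higher in cold (median 1.07; 7 without RT replicate 2) and 5 in CL (2 without CL replicate 1). Over all genes tested, 5.72% were called higher in cold and 0.571% in CL, and the median in cold was 0.0019. Of the genes called, Cd36, Fabp4 and Plin1 in cold and Cd36 and Plin1 in CL were also in the adipocyte list. Angptl4, a secreted inhibitor of lipoprotein lipase, had 48.4 and 93.1 CPM at RT, 417 and 491 CPM after cold, and 370 and 436 CPM after CL. It was detected in 33.7% and 40.6% of thinned cold cells against 4.58% and 7.54% at RT, and in endothelial-type cells in 23.8% and 16.1% against 17.3% and 15.5%. Cd36, the fatty acid translocase, had 19.9 and 10.2 CPM at RT and 81.4 to 121 CPM in the 4 treated libraries. Plin4, Dgat2, Fabp5, Slc27a1 and Agpat2, of the same list, rose by 1.04 to 1.61 log2 units in cold. Of 19 adipogenic transcription factors and regulators tested, 2 were higher in cold, near the 5.72% of all genes called higher, and the list median was 0.19. Pparg had 91.6 and 72.6 CPM at RT, 143 and 127 CPM after cold and 115 CPM in both CL libraries, a difference of 0.71 in cold. Cebpa had 47.8 and 35.2 CPM at RT and 100.2 and 108 CPM after cold, a difference of 1.31. Arxes1, a gene of the adipocyte-related X-chromosome expressed sequences, rose by 3.76 in cold and Arxes2 by 2.09 in CL.

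Of 21 chemokine and cytokine genes tested, 8 rose in cold (12 with the replicate block), against 5.72% of all genes, with a median of 1.34. In CL 0 rose (2 with the replicate block). Those higher in cold were Ccl2, Ccl7, Ccl8, Cxcl2, Cxcl9, Cxcl10, Cx3cl1 and Spp1. There were 4 when RT replicate 2 was left out, 3 when COLD replicate 2 was, and 3 of 19 with thinned cells. Ccl2, which draws monocytes, had 270 and 200.1 CPM at RT, 1304 and 799 CPM after cold, and 366 and 488 CPM after CL. Cxcl10, an interferon-induced attractant of T cells, had 98.4 and 48.1 CPM at RT, 642 and 604 CPM after cold, and 180.1 and 104.5 CPM after CL. Detection of Cxcl10 in thinned cells was 25% and 27.6% in cold, 4.74% and 4.04% at RT and 6.21% and 2.04% in cold endothelial-type cells. Cxcl9 had 285 and 274.5 CPM at RT, 928 and 1278 CPM after cold, and 243.5 and 229 CPM after CL. Beside these lists, the macrophage markers summed to 27.4 and 20.9 CPM at RT and 41.6 and 31.4 CPM after cold, and Tyrobp and Fcer1g were called higher of 5 tested. Their part in the interferon and chemokine results was not tested. In the complement and acute-phase list, which also holds Ifi27l2a, 3 of 17 genes were higher in cold (Saa3, Hp and Ifi27l2a). Clu, a secreted chaperone, was lower. Over all genes, 5.72% were called higher and 5.51% lower in cold, and 0.571% higher in CL. With the replicate block 5 of the list were higher in cold, and 4 in place of 2 in CL. Hp (haptoglobin) had 0.772 and 1.34 CPM at RT, 86.3 and 79.7 CPM after cold, and 385 and 44.5 CPM after CL. The CL libraries lay far apart, both above the RT libraries. Saa3, an acute-phase apolipoprotein, had 13.1 CPM and 0 at RT and 610 and 615 CPM after cold, and 1472 and 48.6 CPM after CL. Without RT replicate 2, Hp and Saa3 no longer passed in cold (6.71 and 5.54 on the log2 scale). The Saa3 call was also lost without RT replicate 1 or either COLD replicate, with thinned cells and in DESeq2. Hp also lost its call without RT replicate 1 and with thinned cells.

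Matrix genes changed in both directions. Of 24 other matrix and matricellular genes, 7 rose in cold (Mfap4, Fmod, Tnc, Postn, Thbs1, Thbs2, Smoc1) and 3 fell (Fbln1, Smoc2, Spon1), while 3 rose in CL (7 with the replicate block). Over all genes 5.72% rose and 5.51% fell in cold and 0.571% rose in CL. When RT replicate 2 was left out, 2 of the list rose and 3 fell. Postn, which encodes periostin of remodelling matrix, had 55.8 and 38.3 CPM at RT, 743 and 848 CPM after cold, and 574 and 372 CPM after CL. It was detected in 47.3% and 46.4% of thinned cold cells against 5.82% and 3.10% at RT, and in endothelial-type cells in 9.66% and 11% against 9.23% and 24.5%. The RT shares of ASC1-type cells thus lay below those of endothelial-type cells, and how much of either came from free RNA was not tested. Timp1, a metalloproteinase inhibitor, had 131 and 55.3 CPM at RT, 1239 and 857 CPM after cold, and 551 and 147 CPM after CL. Its share of thinned cells was 47.7% and 40.8% in cold and 7.65% and 11.7% at RT, with at most 1.28% of endothelial-type cells in the cold libraries. The call on Timp1 did not hold without RT replicate 2 (2.99, edgeR adjusted p = 0.0977), nor without RT replicate 1 or either COLD replicate. The call on Tnc, tenascin-C, was also lost without RT replicate 1 and without RT replicate 2 (4.79 in the latter case).

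Smoc2, a calcium-binding matrix protein, was the most abundant gene that fell. It had 4463 and 4246 CPM at RT, 255 and 254 CPM after cold, and 554 and 2114 CPM after CL. The cold difference of -4.10 passed (adjusted p = 0.0256), while the CL libraries lay far apart and their difference from RT did not pass. The cold call was lost without either COLD replicate and with thinned cells. Col6a6, a collagen VI chain, had 117 and 118.5 CPM at RT, 8.70 and 9.65 CPM after cold, and 37.1 and 54.9 CPM after CL. In the basement membrane list, 2 of 13 fell in cold, Lama2 and Col6a6, against 5.51% of all genes called lower. Crispld2, Hmcn2, Adamtsl3 and Gpc3, secreted or matrix-bound proteins, fell by 3.15, 3.12, 2.77 and 2.60 on the log2 scale, where Crispld2 lost its call without either COLD replicate and Gpc3 with thinned cells. Of the 10 interstitial collagens, the median difference in cold was 0.019, and Col14a1 was lower in cold than in CL, with 29.5 and 31.8 CPM against 167 and 113 CPM.

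Signalling and growth genes showed single changes. Over all genes tested, 5.72% were called higher and 5.51% lower in cold. In the BMP and TGF-β list, Bmp2, Bmp4 and Ltbp4 were lower and Ltbp2 was higher, of 25 tested (0 higher and 3 lower without RT replicate 2, and 7 lower with the replicate block). Bmp4, a ligand known for committing precursors to fat, had 20.5 and 22.3 CPM at RT, 1.5 and 1.99 CPM after cold, and 3.06 and 11.1 CPM after CL. In the Wnt list, the inhibitor Dkk2 and the ligand Wnt5a fell and the receptors Fzd1 and Fzd4 rose, of 16. Leaving out RT replicate 2 left 1 higher and 2 lower. Among 16 angiogenic factors, Vegfd, Fgf10, Apln and Pdgfa rose and Vegfc, Pgf, Angpt1 and Pdgfd fell, of which 2 falls and no rise passed without RT replicate 2. Fgf10, a fibroblast growth factor, had 80.8 and 58.8 CPM at RT and 198 and 170.1 CPM after cold. The cytokine receptor Lifr and the growth hormone receptor Ghr fell and Cd44, Sdc1 and Tnfrsf12a rose, of 23 receptors, where 0 rose and 1 fell without RT replicate 2. The counts of the BMP, Wnt and receptor lists are too few beside those shares to be read as results about the lists. Adm, adrenomedullin, fell from 152 and 103 CPM to 20.4 and 19.8 CPM, a call lost without RT replicate 1 (edgeR adjusted p = 0.0587) and with the Adrb1 line included. Dlk1, an imprinted inhibitor of adipogenesis, fell from 183 and 82.4 CPM at RT to 5.60 and 3.04 CPM in cold and 12.9 and 24.7 CPM in CL. Ribosome biogenesis genes rose in cold for 11 of 19 (median 0.91; 5 without RT replicate 2 and 2 without COLD replicate 1), for example Nop16, from 21.8 and 23.2 CPM to 64.4 and 63.0 CPM. Adrb3, the β3 receptor, was at 0.193 and 0.446 CPM at RT, 10.3 and 6.29 CPM after cold, and 5.82 and 2.83 CPM after CL, and passed in cold (4.83), and in CL it passed with the replicate block (edgeR adjusted p = 0.0317) and not without it.

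The genes called in CL included some with no call in cold against RT. Prg4, a lubricant proteoglycan, had 2.12 and 11.1 CPM at RT, 15.1 and 17.2 CPM after cold, and 108 and 39.1 CPM after CL. Serpina3n, a protease inhibitor, had 17.2 and 10.7 CPM at RT, 41.7 and 62.5 CPM after cold, and 275 and 91.5 CPM after CL. Both were called in CL against RT (Serpina3n also in cold with the replicate block), and neither was among the 47 genes called between cold and CL. Ly6h had 12.2 and 17.4 CPM at RT, 15.5 and 13 CPM after cold, and 80.3 and 46.4 CPM after CL, and differed by -2.14 between cold and CL (0.145% of all genes were called lower, and 6 met the naming rule). The others were Col14a1 (-2.19), Arsi (-2.09), C1qtnf2 (-1.72), Thbs3 (-1.70) and Lgi2 (-1.23). Pfkl, a glycolytic kinase, rose equally in both, with 11.2 and 10.2 CPM at RT, 55.8 and 46.0 CPM after cold and 55.8 and 46.6 CPM after CL. Of the 6 genes named as lower in cold than in CL, Ly6h, Arsi, C1qtnf2, Thbs3 and Lgi2 did not pass without RT replicate 2. The 10 named CL genes that did not pass without RT replicate 2 were Hp, Ucp1, Prg4, Serpina3n, Chchd10, Ly6h, Agt, P2ry1, Nmb and Pmvk.

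In the Adrb1 line the targeted gene was at 6.37 CPM (95% exact Poisson interval 3.06 to 11.7) in WT mice at RT and 5.35 CPM (3.89 to 7.18) after cold. In the KO libraries it was at 0.782 CPM (0.0198 to 4.36) and 0.529 CPM (0.109 to 1.55), which rest on 1 and 3 counts. In the C57 libraries Adrb1 was at 3.67 to 11.2 CPM. Each group of this line is 1 library, and RT libraries were made with version 3 of the kit and cold libraries with version 2, so kit and temperature cannot be told apart and no test was made. Intervals cover counting error only.

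The genes called in C57 mice mostly had the same direction here. Of the 711 genes higher in cold in C57 mice, 648 (91.1%) were higher in the WT cold library and 641 (90.2%) in the KO cold library. Of the 685 lower genes, 86.9% and 85.8% were lower. Among genes not called in C57 mice, 51.3% and 48.0% were higher in cold. The interferon list was higher after cold in both genotypes, with a median difference (log2 with 1 CPM added) of 1.24 in WT mice (18 of 24 higher) and 2.21 in KO mice (22 of 24). Irf7 had 26.1 CPM (18.8 to 35.4) at RT and 121 CPM (113 to 128) after cold in WT mice, and 31.3 CPM (22.3 to 42.6) and 352 CPM (337 to 368) in KO mice. Isg15 had 446 CPM in WT cold and 1263 CPM in KO cold, so the KO cold library was higher than the WT cold library for both. The sterol-synthesis medians were -0.75 (WT) and -1.59 (KO), with 3 of 19 genes higher after cold in each, and Fdps showed 47.8 CPM and 46.9 CPM in WT mice. Timp1 had 67.5 CPM at RT and 1441 CPM after cold in WT mice and 29.7 CPM and 993 CPM in KO mice. Postn differed from the C57 pattern in WT mice alone, with 552 CPM at RT and 528 CPM after cold, against 170.4 CPM and 565 CPM in KO mice. Its share of thinned cells was higher after cold in both, at 14.9% and 34.6% in WT and 13.9% and 34.1% in KO mice. Adm differed from the C57 pattern in both genotypes, with 45.9 CPM at RT and 44.3 CPM after cold in WT mice and 53.9 and 64.6 CPM in KO mice. Car3 was at 152 CPM (WT) and 98.5 CPM (KO) after cold, below the C57 cold libraries.

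**Figure D4:**
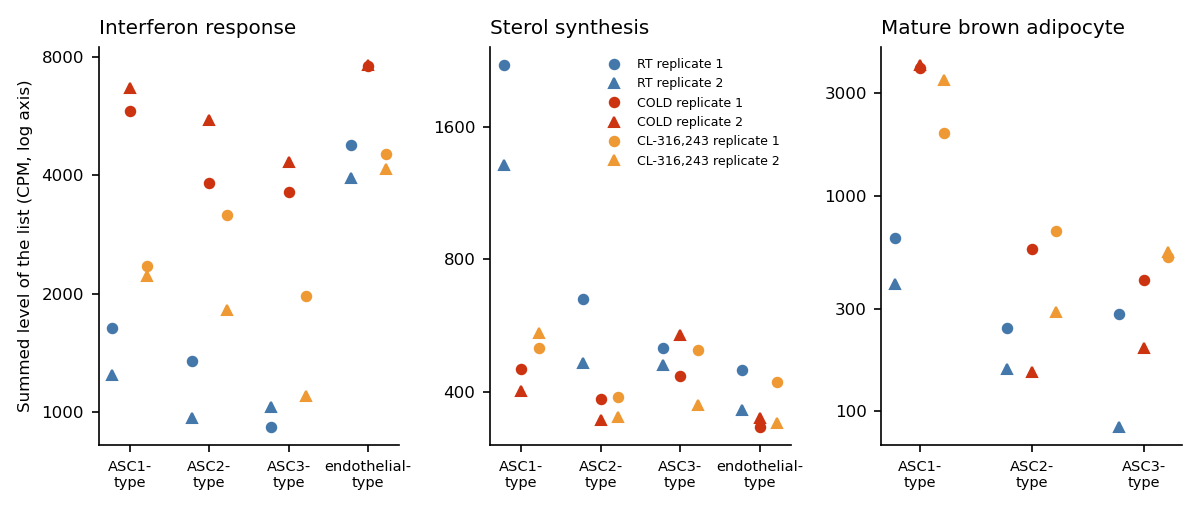
Summed level (CPM, log axis) of the interferon-response, sterol-synthesis and mature brown adipocyte lists in each gate, by C57 library, colour for treatment and marker shape for replicate. Interferon levels are raised in cold in all 4 gates, whereas sterol levels at RT are highest in ASC1-type cells and for the adipocyte list both cold libraries lie above both RT libraries in ASC1-type cells but not in ASC2-type or ASC3-type cells. Endothelial-type cells, which express Fabp4 and Cd36, are left out of the adipocyte panel.

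The response was compared with that of ASC2-type and ASC3-type cells, gated by the same rule with the marker lists exchanged. The comparison used a class by treatment term in edgeR with the library as a block. All 10 Lin- libraries held 5584 ASC2-type and 1106 ASC3-type cells, but the fit used the 6 C57 libraries alone. These held 408 to 917 ASC2-type and 34 to 162 ASC3-type cells each. For cold, 630 of 11538 genes differed from ASC2-type cells (5.46%), 245 more positive (2.12%) and 385 more negative (3.34%) in ASC1-type cells. Against ASC3-type cells it was 415 of 10279 (4.04%), 201 more positive (1.96%) and 214 more negative (2.08%). For CL the counts were 39 (0.338%) against ASC2-type cells, 23 more positive (0.199%) and 16 more negative (0.139%), and 71 (0.691%) against ASC3-type cells, 54 more positive (0.525%) and 17 more negative (0.165%). Without RT replicate 2 the counts were 371 and 172 for cold and 31 and 10 for CL, against ASC2-type and ASC3-type cells. The summed counts of ASC3-type cells were the smallest, and 478 and 236 genes were called for cold once the gates had been thinned to the same depth.

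The fall of sterol synthesis was larger in ASC1-type than in ASC2-type cells for 8 of 19 genes, where 3.34% of all genes were more negative (list median of the difference -1.25, all genes -0.0525). It was larger than in ASC3-type cells for 7 of 19, against 2.08% of all genes (median -2.19, all genes -0.0124). These counts were 7 and 5 with RT replicate 2 left out, and 3 and 1 with COLD replicate 2 left out. By summed level the list went from 2205 and 1311 CPM at RT to 452 and 402 CPM in cold in ASC1-type cells, and from 652 and 467 CPM to 386 and 346 CPM in ASC2-type cells. Of the 24 interferon genes, 1 was more positive (Usp18) and 1 more negative (Irf9) against ASC2-type cells, of which the former alone passed without RT replicate 2. Against ASC2-type cells 2.12% of all genes were more positive and 3.34% more negative, so these calls are not read as a result about the interferon list. In ASC1-type cells that list summed to 1637 and 1239 CPM at RT, then to 5822 and 6671 CPM after cold, against 4774 and 3933 CPM, then 7571 and 7615 CPM, in endothelial-type cells. In the complement and acute-phase list, 8 of 17 were more negative against ASC2-type cells, 8 also with RT replicate 2 left out and 2 with COLD replicate 2 left out.

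The named genes included several with opposite values in 2 gates. Postn rose by 4.07 in cold in ASC1-type cells and differed by -1.82 in ASC2-type cells, where that change did not pass (359 to 102 CPM). The difference in response was 5.81 ± 0.40 (edgeR adjusted p = 2.27e-06). Adm fell by 2.67 in ASC1-type cells and rose by 1.80 in ASC2-type cells, a difference of -4.53. Complement C4b differed by 0.30 in ASC1-type cells, which did not pass, and rose by 3.50 in ASC2-type cells, from 40.4 to 458.5 CPM. Smoc2 fell by 4.10 in ASC1-type cells, against differences of 0.55 in ASC2-type and 1.04 in ASC3-type cells that did not pass. Its difference in response from ASC2-type cells lost its call without COLD replicate 1. Timp1 responded more positively than in ASC3-type cells, by 4.02. The corresponding value for Fabp4, 3.71, turned to -5.32 when RT replicate 1 was left out, became 13.4 with COLD replicate 1 left out, and did not pass at 2.20 once COLD replicate 2 was left out instead. The differences in mt-Co1, mt-Atp6, mt-Nd1 and Rpl41 stand beside RT levels that differ between libraries, as mt-Co1, mt-Atp6 and mt-Nd1 were at 237.5, 248.5 and 180.2 CPM in RT replicate 1 and at 0 in RT replicate 2. They held without RT replicate 2, at 3.07 for mt-Co1 and 2.74 for mt-Atp6 against ASC2-type cells and -4.25 for mt-Nd1 against ASC3-type cells, with Rpl41 at 1.70 and 2.52. The calls on mt-Co1, mt-Atp6 and mt-Nd1 were lost once RT replicate 1 was left out, those on mt-Co1, mt-Atp6 and Rpl41 against ASC2-type cells without COLD replicate 2, and those on mt-Atp6 and Rpl41 against them also without COLD replicate 1.

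**Figure D5:**
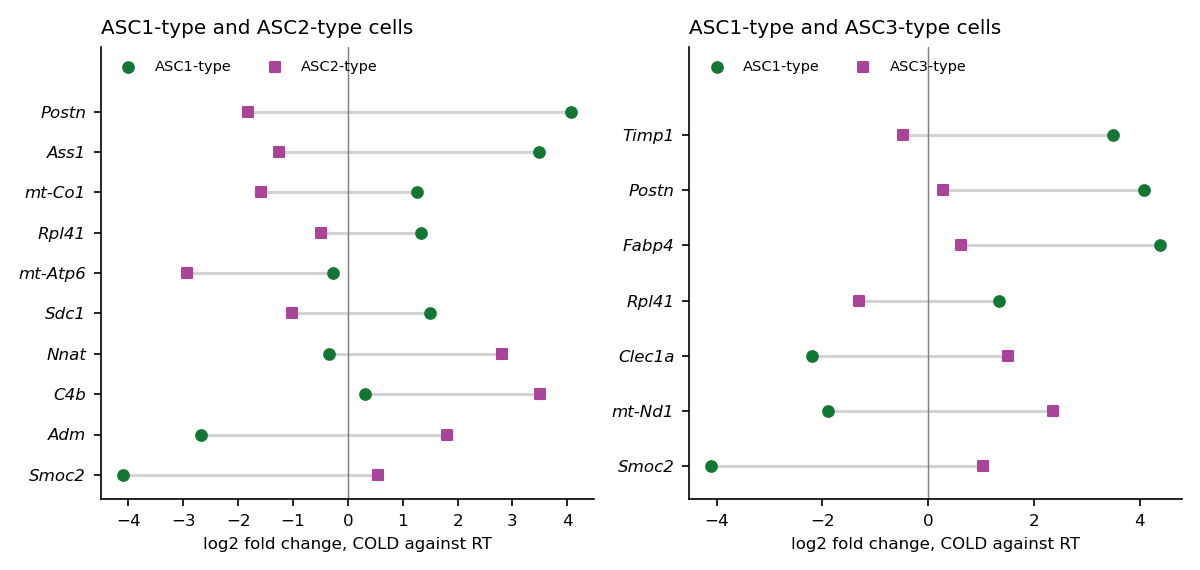
log2 fold change, COLD against RT, of the named genes whose cold response differed between ASC1-type cells (circles) and ASC2-type cells (left, squares) or ASC3-type cells (right, squares), for genes tested in both gates. The grey bar joins the 2 values of a gene. Postn, Ass1 and Sdc1 lie to the right in ASC1-type cells and to the left in ASC2-type cells, and Adm and Smoc2 the reverse, while Clec1a lies to the left in ASC1-type cells and to the right in ASC3-type cells, although only some of the changes within a gate passed the test.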

How the data were processed

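Lin- cells of mouse iBAT were profiled by droplet single-cell RNA-seq. The deposited values are estimated counts: the authors aligned reads to mm10 with Cell Ranger 3.0.1 and corrected UMI counts for free RNA with SoupX, with Fabp4 and Car3 set as non-expressed genes. The 10 Lin+ libraries were not used. Doublets were not removed; leaving out the top 6% of Scrublet scores was an alternative.

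Counts of the gated cells were summed per library, rounded and tested with edgeR 4.0.16 in R 4.3.3 (TMM, filterByExpr, quasi-likelihood F test, SE from the fold change and F). C57 CPM use the effective library size and Adrb1 CPM the summed counts. A 2 against 2 exact permutation test cannot go below p = 0.3333, so single values have no such test. Shares of cells are of cells thinned to 1500 UMIs, leaving out shallower cells. Named genes had an adjusted p under 0.05 and at least 50 CPM in the higher group, with rule genes left out. They were up to 14 each way for cold and CL, 8 for cold against CL and 6 for each response difference. No overlap between groups was also required for cold, CL and cold against CL, but not for the response differences. Genes of a fixed list were also named. Single values of some list genes are not reported here, although the counts and medians include them. Members and lists were chosen with earlier results of these data known. Alternatives were RLE scaling, no filter, DESeq2 1.42.0, fewer or more libraries, a replicate block, other gates and thinning. The study merged libraries of the same replicate experiment, so the number marks an experiment and a fit with it as a block is given beside the list counts and calls it changes most. Same-numbered libraries deviated from their group means with correlations of 0.168 (RT and COLD), -0.0354 (RT and CL) and 0.322 (COLD and CL). The test was tried on simulated counts. The edgeR p-values set a difference against the spread between libraries, estimated over the C57 libraries together, and not against the spread between single mice.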

Additional observations from a re-analysis of the deposited data

Results flagged for a closer look

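These genes differed between gates in their response, by the class by treatment term of edgeR at an adjusted p under 0.05, and met the rule for naming. Values are differences between log2 fold changes, ASC1-type minus the other gate, over 2 libraries per group. For cold against ASC2-type cells, the response was more positive for Postn (5.81), Ass1 (4.72), mt-Co1 (3.07), Rpl41 (2.77), mt-Atp6 (2.74) and Sdc1 (2.50), and more negative for Smoc2 (-4.93), Adm (-4.53), Spon1 (-3.45), Col4a3 (-3.30), C4b (-3.23) and Nnat (-3.20). Against ASC3-type cells, the cold response was more positive for Mmd (10.7), Timp1 (4.02), Ptx3 (3.88), Postn (3.797), Fabp4 (3.71) and Rpl41 (3.25). It was more negative for Plekha6 (-11.1), Cldn15 (-9.74), Smoc2 (-5.39), mt-Nd1 (-4.31) and Clec1a (-3.95). For CL and ASC2-type cells, the response was more positive for Sfrp2 (3.38), Cxcl13 (2.90), Postn (2.52), Igfbp5 (2.49), Cd248 (1.68) and Ppp1r14b (1.48), and more negative for Igfbp7 (-3.29), Cthrc1 (-3.20), Bgn (-2.92), Ret (-2.76), Lox (-2.46) and Atp2b4 (-1.82). For CL and ASC3-type cells, the response was more positive for Ptx3 (4.40), Sfrp2 (3.66), Cxcl13 (3.46), Agt (3.02), C4b (2.52) and Cxcl12 (2.42), and more negative for Cthrc1 (-2.84), Smoc2 (-2.68), Myoc (-2.56), Scd1 (-2.49), Clec1a (-2.31) and Crispld2 (-2.27). 

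Some of these values rest on few counts or on 1 library. Mmd went from a mean of 16.8 CPM at RT to 0 after cold in ASC3-type cells, and Plekha6 and Cldn15 went from 0 to 24.7 and 13 CPM there, so their fitted differences depend on the prior count and are no bounds. In ASC2-type cells Spon1 (1.04 CPM at RT and 1.96 CPM after cold) and Col4a3 (3.71 and 6.00 CPM) were too low to be tested on their own, so their differences rest on the levels in ASC1-type cells. The mitochondrial genes mt-Co1, mt-Atp6 and mt-Nd1 were at 0 in RT replicate 2, and Rpl41 was at 1812 and 51.2 CPM in the RT libraries. Without RT replicate 2, Spon1 against ASC2-type cells and Mmd, Postn, Plekha6 and Cldn15 against ASC3-type cells no longer passed for cold. Under the same setting Cd248, Ppp1r14b, Cthrc1, Ret and Lox against ASC2-type cells, and Ptx3, Cxcl13, Agt, Cxcl12, Cthrc1, Smoc2, Myoc and Clec1a against ASC3-type cells, no longer passed for CL. Other libraries mattered too. For cold against ASC2-type cells, Nnat, Sdc1 and Spon1 lost their calls without RT replicate 1, and Nnat, Smoc2 and Spon1 without COLD replicate 1. For CL, Atp2b4, Cd248, Cxcl13, Igfbp5, Igfbp7, Ppp1r14b and Ret lost theirs without CL replicate 1.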

How the results depend on the processing

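Of the genes called both as reported and under an alternative, 0 had the opposite sign in the comparisons of cold, CL and RT. Without a filter on low counts, edgeR called 2123 genes for cold, 612 for CL and 429 for cold against CL, and response differences of 1053 (cold) and 310 (CL) against ASC2-type cells. Against ASC3-type cells that setting gave fewer, 322 (cold) and 49 (CL), where the counts with the filter were 415 and 71. DESeq2 called 1198, 300 and 144. With cells thinned to 1500 UMIs the counts were 506, 17 and 2, and with gates thinned to equal depth the differences from ASC3-type cells numbered 236 (cold) and 18 (CL). Fitting both lines with line as a term gave 3908 genes for cold, a fit in which kit version differs with temperature in the Adrb1 line and cannot be told apart from it. Fitting only the cold and CL libraries gave 0 genes in edgeR for cold against CL, with 1705 at an unadjusted p under 0.05. Leaving out each library in turn gave 360 to 1845 genes for cold, 31 to 459 for CL and 0 to 85 for cold against CL, with 0 reached without RT replicate 1. The response differences ranged from 195 to 860 and 109 to 443 for cold, and 31 to 229 and 10 to 125 for CL, against ASC2-type and ASC3-type cells. Values that turned were Fabp4 (cold, ASC3-type), from -5.32 without RT replicate 1 to 13.4 without COLD replicate 1, and Myoc (CL), from -11.54 without RT replicate 2 to 5.86 without CL replicate 2. The cause was not tested.

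With the replicate block, the counts were 1997, 264 and 109, and every gene named by the rule kept its call in the comparisons of cold, CL and RT. Depth limits genes of few counts, most in RT replicate 2.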
